A study of Mus musculus with 10 samples.

Results

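The genes described here are 37 genes of lysosome hydrolases, lysosome membrane proteins, the proton pump and autophagy, together with Tfeb, the transcription factor that drives many of them. Each gene was represented by 1 probe set, the one with the highest mean over the 10 arrays among those annotated to that symbol alone. By this rule 36 of the 37 were found, out of 18193 genes in all, and each of the 36 was brighter than the limit below which the dimmest 30% of genes were left out, so all 36 were among the 12735 genes tested. Cd63, the remaining listed gene, was not analysed here. The symbols were a working list of the pathway and used no measured value.

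The samples were bone marrow leukemic cells of mice with T-cell acute lymphoblastic leukemia (T-ALL) started by ICN1, an activated form of NOTCH1. In both groups the leukemias carried the ROSCreERT2 transgene, a Cre recombinase that tamoxifen switches on, and 2 floxed alleles of CnB1, the regulatory subunit of calcineurin that is encoded by Ppp3r1. The TAM group came from leukemic secondary recipients given tamoxifen, so that CnB1 was deleted, and the OIL group from recipients given corn oil, which kept CnB1. Leukemic cells, more than 50% of the marrow, were sorted by flow cytometry on a fluorescent marker, and 200 ng of total RNA went onto each array. There were 5 TAM and 5 OIL arrays, and each group had 1 array for each of the labels 204, 206, F3, F3.1 and F3.2. The F3.1 and F3.2 labels carry a further number that differs between the groups (F3.1-4 in TAM and F3.1-1 in OIL, F3.2-10 in TAM and F3.2-3 in OIL), so that 2 of the 5 pairs join arrays whose full labels differ, and they are shortened here. What these labels stand for and the ages of the mice were not given, nor that each array was a separate mouse, so the p-values measure the spread between these arrays, part of which may be technical. Values are log2 probe set signals after robust multi-array averaging (RMA), and a log2 difference of 1 is a doubling.

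Lysosomes digest proteins, lipids, sugars and the contents of autophagosomes with hydrolases, most of which work best at acid pH. A proton pump, the vacuolar ATPase (V-ATPase), maintains that pH. TFEB is held in the cytoplasm when mTORC1 phosphorylates it at the lysosome surface. In other cell types, calcium released from the lysosome through the channel MCOLN1 activates calcineurin, which removes phosphates from TFEB and lets it enter the nucleus. There it binds a palindromic element, known as CLEAR, in the promoters of lysosome and autophagy genes. The arrays measured RNA only, not the phosphorylation or location of TFEB. In these bulk samples fewer cells that express a gene and less RNA per cell cannot be told apart.

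RefSeq promoter windows (GRCm38.p6, 250 bases before to 50 after each gene's start, 300 in all) were listed for 33 of the 37 genes. The inner 8 letters of the CLEAR element, TCACGTGA, which read the same on both strands, were in 5 of the members' 37 windows (13.51%) and in 320 of all 32851 windows (0.974%). The core within it, CACGTG, was in 11 windows of members (29.73%) and in 2349 of all windows (7.15%). A match describes these letters and is no evidence of TFEB binding in these cells. The 4 windows below are shown because they are those of the first 4 members, by symbol, that hold the 8 letters, the fifth being Mcoln1. Each is 5′ to 3′ on the gene's own strand, with TCACGTGA in capitals. The copy in Atp6v0d1 (chr8:105566015-105566314, minus strand) begins 4 bases before the start, and that in Ctsd (chr7:142387778-142388077, minus strand) 99 bases before it. Ctsa (chr2:164833523-164833822, plus strand) has 2 copies, which begin 13 bases before and 4 bases after the start. Gla (chrX:134600956-134601255, minus strand) has 2, which begin 228 and 195 bases before it.
Atp6v0d1: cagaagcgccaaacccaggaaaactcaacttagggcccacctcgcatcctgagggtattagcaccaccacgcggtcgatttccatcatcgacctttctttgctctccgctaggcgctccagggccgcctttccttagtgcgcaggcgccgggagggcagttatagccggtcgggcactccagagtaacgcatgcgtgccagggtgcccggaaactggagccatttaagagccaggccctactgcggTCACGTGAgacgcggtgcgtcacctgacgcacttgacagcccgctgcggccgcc
Ctsa: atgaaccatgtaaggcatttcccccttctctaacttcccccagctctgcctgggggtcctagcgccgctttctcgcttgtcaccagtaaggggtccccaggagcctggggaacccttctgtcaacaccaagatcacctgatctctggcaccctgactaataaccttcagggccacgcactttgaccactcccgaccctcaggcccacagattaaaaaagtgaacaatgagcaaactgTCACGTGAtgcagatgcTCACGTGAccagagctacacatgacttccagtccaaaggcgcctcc
Ctsd: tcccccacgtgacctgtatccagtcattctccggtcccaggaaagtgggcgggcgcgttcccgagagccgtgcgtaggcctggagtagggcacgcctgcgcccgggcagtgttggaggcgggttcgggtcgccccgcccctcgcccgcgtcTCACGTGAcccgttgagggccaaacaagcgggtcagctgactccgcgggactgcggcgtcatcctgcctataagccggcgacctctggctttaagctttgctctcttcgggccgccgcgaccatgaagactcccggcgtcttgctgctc
Gla: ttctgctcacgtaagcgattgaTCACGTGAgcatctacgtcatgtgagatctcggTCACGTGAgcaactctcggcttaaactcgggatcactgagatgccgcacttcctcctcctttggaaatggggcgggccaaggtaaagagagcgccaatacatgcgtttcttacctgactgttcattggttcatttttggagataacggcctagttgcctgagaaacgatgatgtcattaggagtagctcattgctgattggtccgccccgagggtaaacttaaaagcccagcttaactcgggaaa

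The deleted gene was checked first. A probe set of Ppp3r1, dim on average, read 3.18, 3.30, 3.21, 3.02 and 3.59 in the TAM arrays labelled 204, 206, F3, F3.1 and F3.2, against 5.04, 4.49, 6.04, 5.54 and 5.51 in the OIL arrays of the same labels. All 5 TAM values lay below all 5 OIL values, by 2.06 on average (exact two-sided permutation test, p = 0.00794, the smallest that 5 against 5 arrays allow). The brighter probe set of Ppp3r1 averaged 9.67 ± 0.04 in TAM and 9.80 ± 0.09 in OIL arrays (SD, n = 5 each; exact p = 0.0238), and where the 2 probe sets lie relative to the deleted part was not determined. All 9 T-ALL markers measured were above the limit for dim genes (log2 4.59). Of 11 macrophage and monocyte markers 6 were above it, with a summed level of 8.36 to 8.80 in TAM and 8.28 to 8.44 in OIL arrays. Of 8 neutrophil markers 7 were above it, with a summed level of 8.66 to 11.39 in TAM and 7.98 to 10.48 in OIL arrays. The OIL array of label F3.1 correlated with that of F3.2 more closely (r = 0.997 across all probe sets) than any other arrays did (at most 0.995), and the differences that this pair moved by more than 1.5 times are given without it as well for the genes described by array.

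TAM leukemias had slightly lower readings for most of the lysosome genes, and none of the 36 members passed the test. By the mean of the 5 arrays 27 of the 36 members were lower and 9 higher in TAM than in OIL leukemias, while 59.0% of all genes tested were lower. Their median difference, TAM minus OIL, was -0.07, against -0.03 over all genes. Without OIL F3.1 and OIL F3.2 these medians were -0.03 and -0.02, and without TAM F3 the members' median was -0.15, without OIL 204 also -0.15 and without OIL 206 -0.13. The differences ran from -0.45 (Lamp2) to 0.33 (Gabarapl2). With limma and Benjamini-Hochberg adjustment over all 12735 genes, 0 members and 60 genes (0.471%) had an adjusted p under 0.05. An unadjusted p under 0.05 was found for 7 members, 6 lower and 1 higher in TAM, while 13.0% of all genes had one. Without OIL F3.1 and OIL F3.2, 22 members were lower in TAM, with 55.8% of all genes, and with these arrays averaged as 1 sample 24 were lower.

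With the label as a block, which sets each TAM array against the OIL array of the same label, 2 members, Asah1 and Scarb2, were lower in TAM at an adjusted p under 0.05 (limma). Of all genes 431 (3.38%) passed in this fit, and 1.74% passed as lower in TAM. Over the 5 pairs, 11 members were lower in TAM in every pair, while 13.5% of all genes were: Asah1, Atp6v0d1, Ctsa, Ctsd, Gaa, Lamp1, Npc2, Ppt1, Scarb2, Tfeb and Tpp1. In every pair 2 members, Atp6v1h and Gabarapl2, were higher in TAM, while 8.40% of all genes were. Every TAM array lay below every OIL array for Ctsd and Scarb2, 2 of the 36 members, and for 1.99% of all genes. Without the pairs F3.1 and F3.2, whose full labels differ between the groups, 0 members and 91 genes passed the blocked fit. No member had every TAM array above every OIL array, as 1.27% of all genes did.

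**Figure D1:**
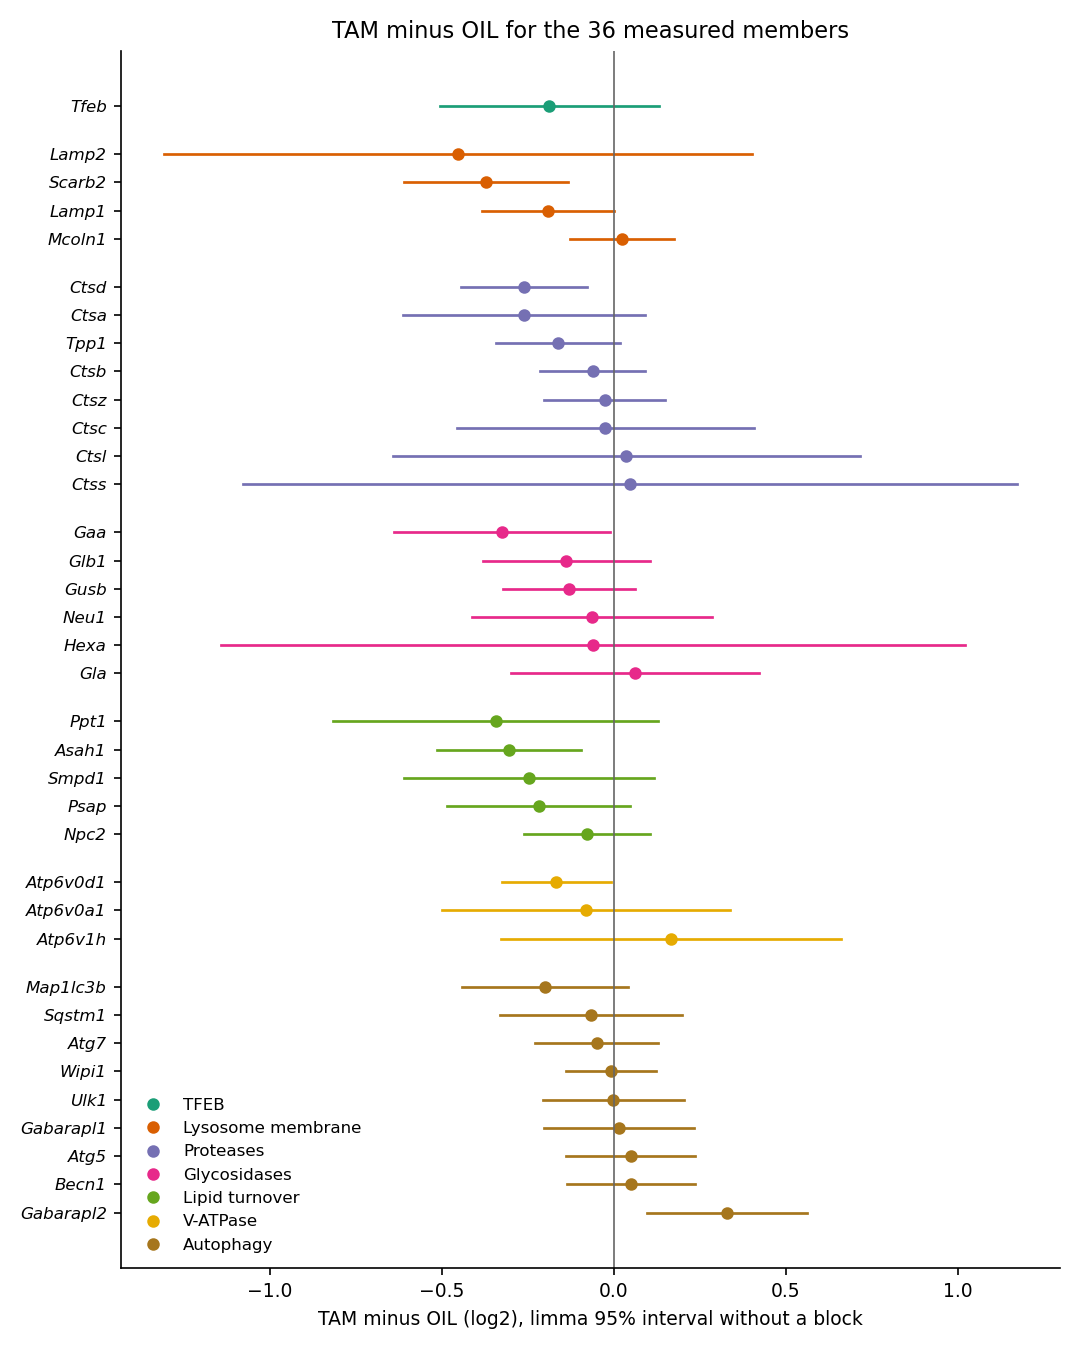
TAM minus OIL difference of each of the 36 measured genes on the log2 scale, with its 95% interval from the fit without a block (n = 5 arrays each). Most points lie left of 0, Gabarapl2 lies farthest right at 0.33, and only the genes with an unadjusted p under 0.05 have intervals that leave out 0.

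Tfeb itself, the regulator of the set, was read at 6.14, 6.30, 6.55, 6.60 and 6.80 in TAM leukemias 204, 206, F3, F3.1 and F3.2, against 6.49, 6.44, 6.58, 6.92 and 6.90 in OIL leukemias of the same labels. Each TAM array was below its OIL partner, and the groups overlapped, since F3.1 and F3.2 were the highest labels in OIL and were high in TAM as well. The mean difference was -0.19 with a 95% interval of -0.51 to 0.13 (limma, adjusted p = 0.643), or adjusted p = 0.175 with the block. It was -0.10 without TAM 204, -0.12 without OIL F3.1 and -0.02 without both OIL F3.1 and OIL F3.2. Per-array values are given in this order of labels throughout.

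The lipid-handling enzymes of the lysosome averaged lower in TAM for all 5 members measured (median -0.25). Asah1, acid ceramidase, which splits ceramide into sphingosine and a fatty acid, read 8.47, 8.04, 8.16, 8.35 and 8.25 in TAM and 8.75, 8.46, 8.44, 8.56 and 8.59 in OIL leukemias. TAM 204 reached just above the lowest OIL arrays, and the other TAM arrays lay below all of OIL. Asah1 averaged 8.25 ± 0.17 in TAM and 8.56 ± 0.13 in OIL (SD, n = 5 each), a difference of -0.31 (SE 0.09; adjusted p = 0.213, and 0.0397 with the block, limma). Leaving out any 1 pair from the blocked fit ended that call, with an adjusted p between 0.0625 and 0.120, and 0.133 without the pairs F3.1 and F3.2.

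Ppt1, a thioesterase that strips palmitate from proteins, read 8.57, 7.85, 8.48, 8.40 and 8.12 in TAM and 8.61, 7.87, 8.86, 8.86 and 8.93 in OIL leukemias. Its pairs 204 and 206 were nearly level, and the 3 other pairs carried most of the difference of -0.34 (adjusted p = 0.549, limma), which was -0.16 without OIL F3.1 and OIL F3.2, -0.53 without OIL 206 and -0.09 over the mean of its probe sets. That mean took in dim probe sets. Psap, the precursor of the saposins that present sphingolipids to their hydrolases, read 10.16, 10.07, 10.27, 10.02 and 10.35 in TAM and 10.11, 10.14, 10.58, 10.51 and 10.62 in OIL leukemias. Again the lower TAM values stood in the 3 pairs F3, F3.1 and F3.2, with a mean difference of -0.22 (adjusted p = 0.490), or -0.10 without OIL F3.1 and OIL F3.2. Smpd1, acid sphingomyelinase, differed by -0.25 (adjusted p = 0.582), and its lowest array was TAM F3.1 at 6.55, without which the difference was -0.08. Npc2, which binds cholesterol in the lysosome lumen, was lower in all 5 pairs by a small amount, -0.08 on average (adjusted p = 0.749), and level (0.0032) without OIL F3.1 and OIL F3.2.

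Among the lysosome membrane proteins 3 of 4 members had lower means in TAM. Scarb2, also called LIMP-2, carries glucocerebrosidase to the lysosome. It read 9.38, 9.42, 9.26, 9.46 and 9.591 in TAM and 9.71, 9.591, 9.62, 10.03 and 10.02 in OIL leukemias. The groups did not overlap, but TAM F3.2 and OIL 206 were equal to 3 decimals. Scarb2 averaged 9.42 ± 0.12 in TAM and 9.79 ± 0.22 in OIL (SD, n = 5 each), a difference of -0.37 (SE 0.11; adjusted p = 0.182, and 0.0397 with the block, limma). Without any 1 pair the blocked call was lost (adjusted p 0.0586 to 0.130), and without OIL F3.1 and OIL F3.2 the difference was -0.22. Its other bright probe set differed by 0.09, the other way, and the mean of its probe sets by -0.14.

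Lamp1 and Lamp2 encode the most abundant glycoproteins of the lysosome membrane. Lamp1 read 10.32, 10.22, 10.35, 10.43 and 10.43 in TAM and 10.42, 10.38, 10.49, 10.72 and 10.70 in OIL leukemias, a difference of -0.19 (adjusted p = 0.383, limma). It was lower in TAM in all 5 pairs, the groups overlapped, and the difference was -0.08 without OIL F3.1 and OIL F3.2. Lamp2 read 10.03, 10.02, 10.56, 11.19 and 10.48 in TAM and 10.06, 10.01, 11.01, 11.76 and 11.72 in OIL leukemias. The difference of -0.45 had a 95% interval of -1.31 to 0.40 (adjusted p = 0.685), and the pairs 204 and 206 were level. It was -0.68 when OIL 206 was left out, -0.24 when OIL F3.1 was, -0.25 when OIL F3.2 was, and 0.10, with the sign turned, when these last 2 were left out together. Mcoln1, the calcium channel that supplies calcineurin in the TFEB pathway, averaged 6.74 ± 0.09 in TAM and 6.71 ± 0.09 in OIL, a difference of 0.02 with a 95% interval of -0.13 to 0.18 (adjusted p = 0.923). It was 0.0062 without OIL F3.1 and OIL F3.2 and 0.06 without OIL F3, and its sign turned to -0.01 without TAM F3.2 and to -0.0082 after a further quantile normalization.

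**Figure D2:**
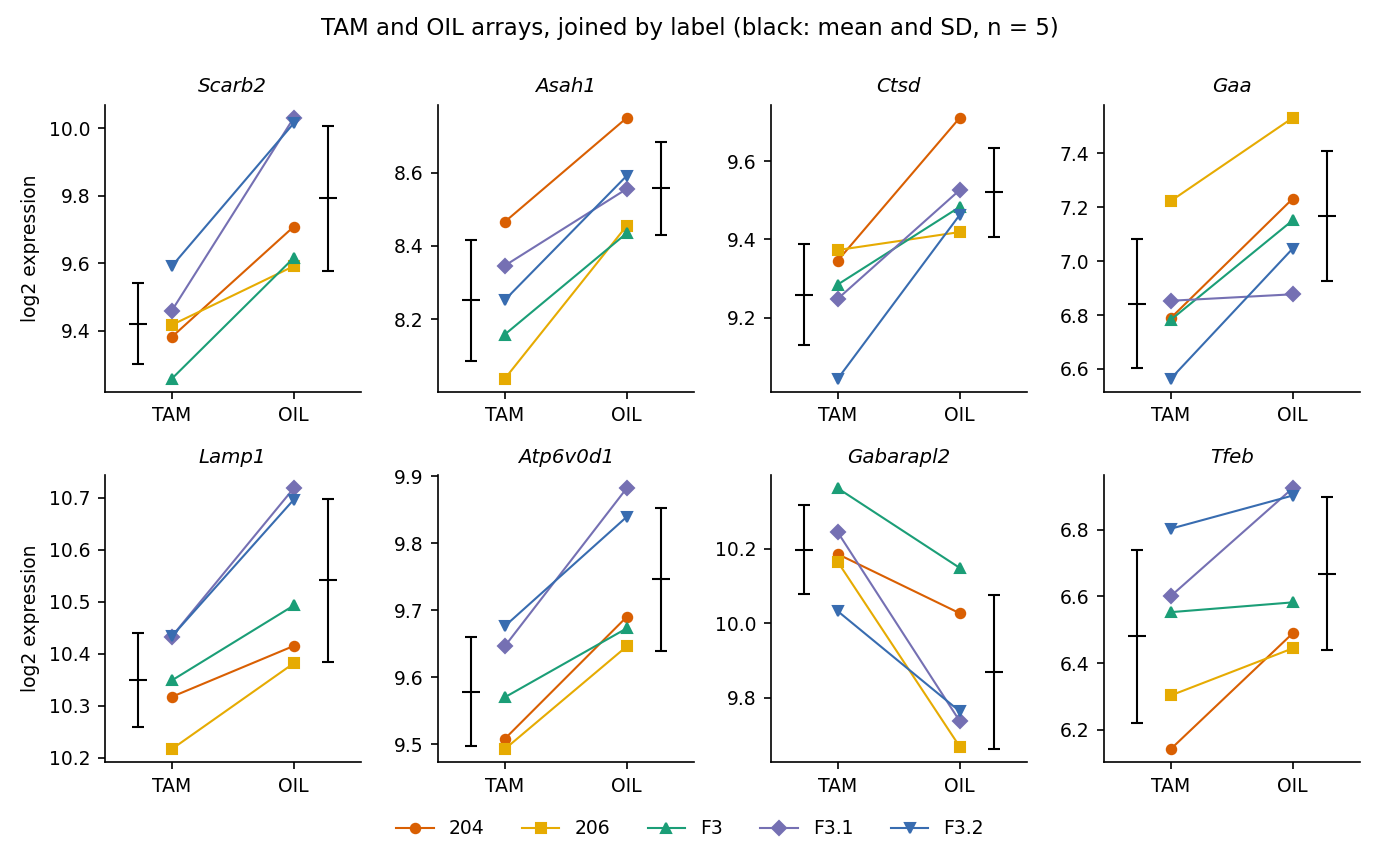
Log2 signal of Scarb2, Asah1, Ctsd, Gaa, Lamp1, Atp6v0d1, Gabarapl2 and Tfeb in each array, TAM left and OIL right, with lines that join arrays of the same label and bars for the mean ± SD (n = 5 each). TAM lies below OIL in all 5 pairs for every gene drawn but Gabarapl2, where TAM lies above OIL in all 5.

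The proteases, mainly cathepsins, averaged lower in TAM for 6 of the 8 measured, though the median of their differences was small, -0.04. Ctsd, the aspartic protease cathepsin D, read 9.35, 9.37, 9.28, 9.25 and 9.04 in TAM and 9.71, 9.42, 9.48, 9.53 and 9.46 in OIL leukemias. The groups did not overlap, and TAM F3.2 was the lowest array. Ctsd averaged 9.26 ± 0.13 in TAM and 9.52 ± 0.11 in OIL (SD, n = 5 each), a difference of -0.26 (SE 0.08; adjusted p = 0.224, and 0.0914 with the block, limma). With the label as a random term Ctsd did pass (adjusted p = 0.0422, limma), in a fit that called 728 of the 12735 genes.

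Ctsa, cathepsin A, which also protects other hydrolases in a complex, read 8.72, 8.74, 9.25, 8.98 and 9.13 in TAM and 8.99, 8.81, 9.54, 9.39 and 9.39 in OIL leukemias. It was lower in TAM in every pair, by 0.08 to 0.41, while the labels differed by more than that and the groups overlapped (difference -0.26, adjusted p = 0.541, and 0.0768 with the block, limma). Without OIL F3.1 and OIL F3.2 the difference of Ctsa was -0.15, and over the mean of its probe sets, the other of which was dim, -0.08. Tpp1, a tripeptidyl peptidase, differed by -0.16 (adjusted p = 0.439), also in 5 of 5 pairs, and by -0.10 without OIL F3.1 and OIL F3.2. The cysteine cathepsins Ctsb, Ctsc, Ctsl, Ctss and Ctsz differed by -0.06, -0.03, 0.04, 0.05 and -0.03, and none passed the test. The other bright probe sets of Ctsb differed by -0.03, -0.60, -0.32 and 0.02. The intervals of Ctsl and Ctss were wide, at -0.64 to 0.72 and -1.08 to 1.17. Without OIL F3.1 and OIL F3.2 the difference of Ctsc turned to 0.10 and that of Ctss was 0.15.

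The glycosidases averaged lower in TAM for 5 of the 6 measured (median of the differences -0.10). Gaa, acid alpha-glucosidase, which breaks down glycogen, read 6.79, 7.22, 6.78, 6.85 and 6.56 in TAM and 7.23, 7.53, 7.15, 6.88 and 7.05 in OIL leukemias. It was lower in TAM in every pair, hardly so in F3.1, and TAM 206 stood above 3 of the OIL arrays. The difference was -0.33 (SE 0.14; adjusted p = 0.364, and 0.0720 with the block, limma). Glb1 and Gusb, which remove galactose and glucuronic acid, differed by -0.14 and -0.13, Hexa and Neu1 by -0.06 each, and Gla by 0.06. None of these 5 passed, and without OIL F3.1 and OIL F3.2 the sign turned for Hexa (0.27) and Gla (-0.09).

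The subunits of the V-ATPase went different ways. Atp6v0d1, of the membrane sector, read 9.51, 9.49, 9.57, 9.65 and 9.68 in TAM and 9.69, 9.65, 9.67, 9.88 and 9.84 in OIL leukemias. It was lower in TAM in all 5 pairs with a difference of -0.17 (SE 0.07; adjusted p = 0.358, limma), and TAM F3.2 reached above 2 OIL arrays. Without OIL F3.1 and OIL F3.2 the difference was -0.09. Atp6v1h, of the cytosolic sector, was higher in TAM in all 5 pairs, by 0.0014 to 0.31, with a mean difference of 0.17 (adjusted p = 0.807), or 0.28 without OIL F3.1 and OIL F3.2. Atp6v0a1 differed by -0.08 (adjusted p = 0.900).

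The autophagy genes showed no common direction, with 5 of 9 lower in TAM and a median difference of -0.0017. Gabarapl2, a ubiquitin-like protein that is joined to lipid on autophagosome membranes, read 10.19, 10.17, 10.36, 10.24 and 10.03 in TAM and 10.03, 9.67, 10.15, 9.74 and 9.76 in OIL leukemias. It was higher in TAM in every pair, and OIL F3 and TAM F3.2 overlapped the other group. Gabarapl2 averaged 10.20 ± 0.12 in TAM and 9.87 ± 0.21 in OIL (SD, n = 5 each), a difference of 0.33 (SE 0.11; adjusted p = 0.227, and 0.0617 with the block, limma). With the label as a random term Gabarapl2 did pass (adjusted p = 0.0364, limma), in a fit that called 728 of the 12735 genes. Over the mean of its probe sets the difference was 0.22. Its relative Map1lc3b (LC3B), read at 10.68, 10.59, 10.75, 10.53 and 10.85 in TAM and 10.66, 10.63, 11.01, 11.06 and 11.05 in OIL leukemias, differed by -0.20 (adjusted p = 0.490). The pairs 204 and 206 of Map1lc3b were level, and OIL stood above TAM in the 3 others, with a difference of -0.09 without OIL F3.1 and OIL F3.2. The other bright probe sets of Map1lc3b differed by -0.24, -0.07 and -0.05, and the first of these was lower in TAM in all 5 pairs, 204 and 206 included.

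Sqstm1, the cargo receptor p62, read 8.35, 8.52, 8.87, 8.64 and 8.75 in TAM and 8.48, 8.50, 8.85, 8.75 and 8.90 in OIL leukemias. The groups overlapped throughout, with a difference of -0.07 and a 95% interval of -0.33 to 0.20 (adjusted p = 0.860, limma), and the sign turned to 0.02 without OIL F3.1 and OIL F3.2. The genes that start or build the autophagosome, Ulk1, Becn1, Atg5, Atg7, Wipi1 and Gabarapl1, differed by between -0.05 and 0.05, with adjusted p-values between 0.846 and 0.996 (limma). The widest of their 95% intervals, that of Gabarapl1, ran from -0.20 to 0.23.

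**Figure D3:**
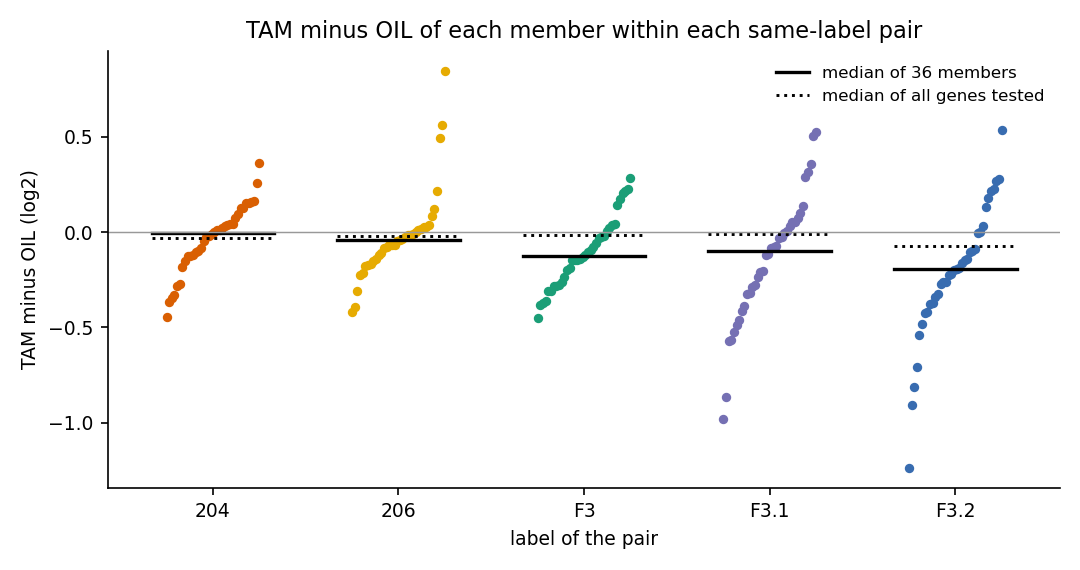
TAM minus OIL on the log2 scale for the measured genes in each same-label pair (204, 206, F3, F3.1, F3.2), with the median over the genes and over all genes tested. The median of the members is lowest in pair F3.2 (-0.20) and nearest 0 in pair 204 (-0.0047).

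The pairs did not contribute alike. The median TAM minus OIL difference of the 36 members was -0.0047 in pair 204, -0.04 in pair 206, -0.13 in pair F3, -0.10 in pair F3.1 and -0.20 in pair F3.2. Over all genes the medians of the same pairs were -0.03, -0.02, -0.01, -0.0079 and -0.07. In pair 204 18 of the 36 members were lower in TAM, in pair 206 24, in F3 26, in F3.1 24 and in F3.2 27. The differences of the pairs 204 and 206 were set against those of the pairs F3, F3.1 and F3.2 in a fit of their own. An unadjusted p under 0.05 was found for 4 members, Ctss, Lamp2, Ppt1 and Psap, while 5.51% of all genes had one. After adjustment 0 of the 36 members and 0.00% of all genes passed (limma), so a different response of the 2 kinds of label was not shown. Of these, Lamp2 differed by -0.0054 in the pairs 204 and 206 and by -0.75 in the 3 others (interaction 0.75, adjusted p = 0.872), and Ppt1 by -0.03 and -0.55 (adjusted p = 0.872).

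Several of these genes had larger differences between labels than between TAM and OIL. The 2 arrays of each label were averaged, and the leukemias labelled 204 and 206 were set against the 3 others (F3, F3.1, F3.2), called the F3 family here because of the shared letters. The split was known from earlier results of these arrays to follow their main axis of variation. Whether F3, F3.1 and F3.2 are independent leukemias was not given, and the fit treats the labels as independent. Of the 36 members 27 were lower in 204 and 206 than in the F3 family, with a median difference of -0.11, while 6503 of 12735 genes were lower and the median of all genes was -0.0043. Hexa was the 1 member that passed, among 331 genes (2.60%) with an adjusted p under 0.05 (limma, 5 label means). An unadjusted p under 0.05 was found for 10 members, all lower in 204 and 206, while 18.4% of all genes had one: Atp6v1h, Ctsa, Ctsc, Hexa, Lamp2, Map1lc3b, Neu1, Psap, Sqstm1 and Tfeb. For Psap the sign depended on the probe set, with -0.27 in the one used and 0.21 in its other bright one. Every 204 and 206 array lay below every F3 family array for 6 members, Atp6v1h, Hexa, Lamp2, Neu1, Sqstm1 and Tfeb, and for 4.57% of all genes. No member had the opposite order, which 6.92% of all genes had.

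Hexa, the alpha subunit of the beta-hexosaminidase that degrades GM2 ganglioside, read 5.95 and 5.75 in the TAM arrays 204 and 206 and 5.83 and 5.67 in the OIL arrays of these labels. In F3, F3.1 and F3.2 it read 7.67, 7.39 and 6.46 in TAM and 7.64, 7.04 and 7.37 in OIL. The 2 sets of labels did not overlap, and TAM F3.2 was the lowest of the F3 family. Hexa averaged 5.80 in 204 and 206 and 7.26 ± 0.37 in the F3 family (SD, n = 3 labels), a difference of -1.46 or 2.75-fold (SE 0.22; adjusted p = 0.0365, limma). The call was lost without label 204 (adjusted p = 0.110), without 206 (0.112), without F3.1 (0.104) and in the TAM arrays alone (0.199).

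Lamp2, whose readings by array are given above, averaged 10.03 in 204 and 206 and 11.12 ± 0.35 in the F3 family, a difference of -1.09 (adjusted p = 0.0576, limma), or -0.72 in the TAM arrays alone. Atp6v1h read 9.33 and 9.45 in TAM 204 and 206 and 9.17 and 9.24 in their OIL partners, with 10.25, 10.05 and 9.84 in TAM and 10.10, 9.74 and 9.83 in OIL arrays of the F3 family. This difference of -0.67 between labels (adjusted p = 0.0604) ran apart from the small and opposite TAM minus OIL difference of the same gene. Over the means of their probe sets the differences of Atp6v1h, Ctsa, Neu1 and Sqstm1 between labels were smaller, at -0.39, -0.29, -0.23 and -0.22. The means of Atp6v1h, Ctsa and Neu1 took in probe sets below the limit for dim genes. The other bright probe sets of Atp6v1h, Neu1 and Sqstm1 differed by -0.49, -0.25 and -0.11. Neu1, the lysosomal sialidase, differed by -0.41 (adjusted p = 0.165), Ctsa by -0.46 (0.0748) and Sqstm1 by -0.33 (0.137). Tfeb averaged 6.34 in 204 and 206 and 6.73 ± 0.15 in the F3 family, a difference of -0.38 (adjusted p = 0.145).

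Ctss, a cathepsin rich in antigen-presenting and myeloid cells, had the widest range over the 10 arrays among the 36 members. It read 7.71 and 6.34 in TAM 204 and 206 and 7.35 and 5.78 in their OIL partners, with 8.62, 7.25 and 6.69 in TAM and 8.39, 7.46 and 7.39 in OIL arrays of the F3 family. Label 204 lay within the range of the F3 family and 206 below it, so that the difference of -0.84 did not pass (adjusted p = 0.504, limma), and it was -1.57 without label 204, -0.10 without 206 and -0.40 without F3. Ctsc, which activates the serine proteases of granules, differed by -0.49 (adjusted p = 0.130). The summed level of the neutrophil markers was 7.98 to 9.14 in 204 and 206 and 8.79 to 11.39 in the F3 family, and it was highest in TAM F3 (11.39) and OIL F3 (10.48). The same 2 arrays had the highest Ctss (8.62 and 8.39) and Hexa (7.67 and 7.64). TAM F3.2 had the next highest neutrophil sum (10.36) but the lowest Ctss (6.69) and Hexa (6.46) of the F3 family. The part of such cells in these values was not tested.

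**Figure D4:**
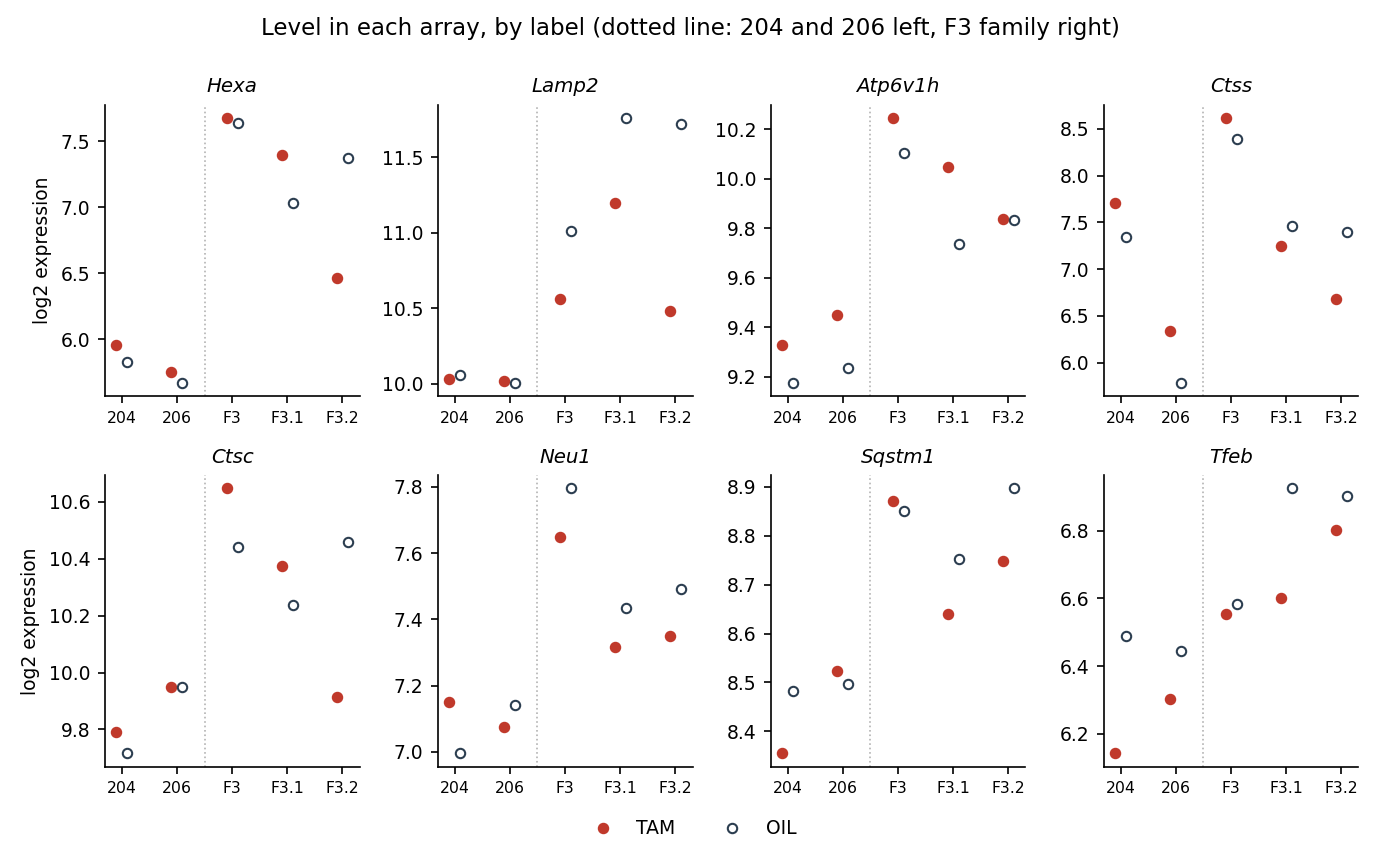
Log2 signal of Hexa, Lamp2, Atp6v1h, Ctss, Ctsc, Neu1, Sqstm1 and Tfeb by label, with the TAM and the OIL array of each label side by side and the 204 and 206 labels left of the F3 family. For Hexa the 204 and 206 arrays sit between 5.67 and 5.95 and the F3 family between 6.46 and 7.67.

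**Figure D5:**
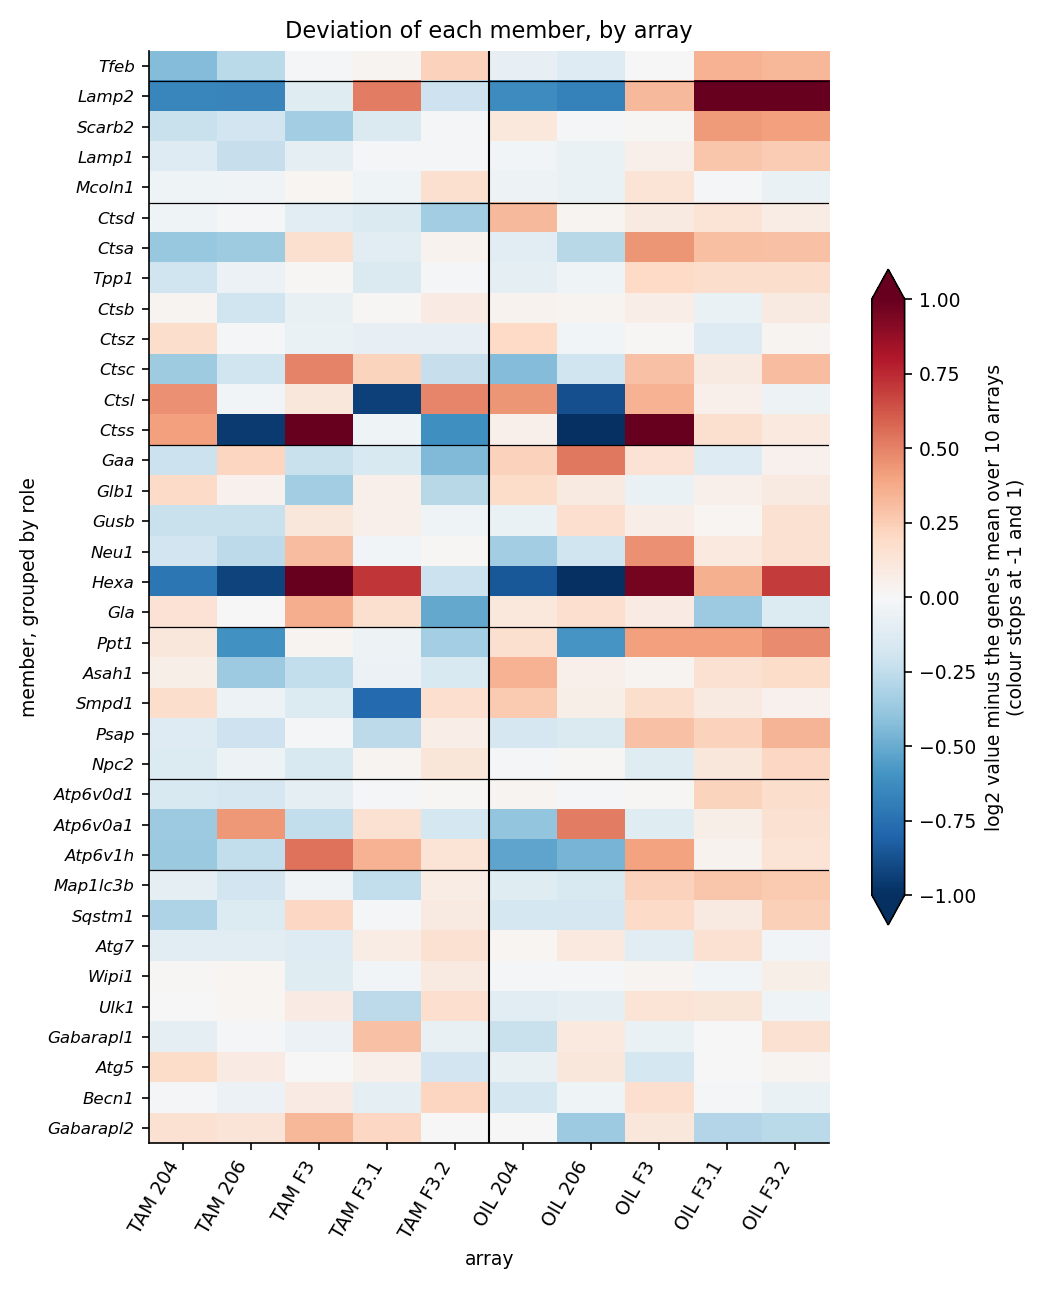
Deviation of each of the 36 measured genes from its own mean in each of the 10 arrays (log2, colour stops at -1 and 1), TAM arrays left of OIL arrays and genes grouped by role. OIL F3, OIL F3.1 and OIL F3.2 hold the highest medians over the genes, at 0.13, 0.09 and 0.15.

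The 36 members were next set beside other genes of the same pathways, from fuller lists of each pathway. Of 42 other lysosome genes tested, 27 were lower in TAM by the mean (59.0% of all genes were), with a median difference of -0.09. Without the block 0 passed (limma). An unadjusted p under 0.05 was found for 7 lower and 2 higher, while 13.0% of all genes had one. With the block 1 was lower and 1 higher, while 3.38% of all genes passed. Hgsnat, which acetylates heparan sulfate for its degradation, read 7.89, 7.75, 7.51, 7.36 and 7.48 in TAM and 8.10, 8.08, 8.01, 8.004 and 8.10 in OIL leukemias, without overlap (difference -0.46, adjusted p = 0.0855, and 0.0321 with the block). Npc1, the membrane partner of NPC2 in cholesterol export, read 6.96, 6.59, 7.40, 7.41 and 6.85 in TAM and 6.39, 6.15, 7.02, 6.35 and 6.50 in OIL leukemias. Npc1 was higher in TAM in every pair (difference 0.56, adjusted p = 0.261, and 0.0427 with the block), opposite to the small difference of Npc2.

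Of 13 other V-ATPase subunits 8 were lower in TAM, with a median difference of -0.0050, and 0 passed with or without the block (limma; 0 had an unadjusted p under 0.05). Of 34 other autophagy genes 24 were lower, with a median of -0.08, and 0 passed in either fit (unadjusted p under 0.05 for 8 lower and 1 higher). By comparison, 59.0% of all genes were lower in TAM, and 13.0% had an unadjusted p under 0.05. Of 22 genes around TFEB and calcineurin 15 were lower, with a median of -0.07. The 15 include the deleted gene, Ppp3r1 (difference -0.12), whose fall was set by the design. In this list Rragd, a Rag GTPase that ties TFEB to mTORC1 and is itself a known TFEB target, read 8.12, 7.95, 7.98, 8.27 and 7.74 in TAM and 8.64, 8.45, 8.20, 8.66 and 8.68 in OIL leukemias. All but TAM F3.1 lay below the lowest OIL array, a difference of -0.51 (adjusted p = 0.106, and 0.0430 with the block). Ywhab, a 14-3-3 protein of the family that retains phosphorylated TFEB in the cytoplasm, differed by -0.28 (0.179, and 0.0489 with the block). Without the pairs F3.1 and F3.2 the blocked calls of these genes were lost, with adjusted p-values of 0.151 for Hgsnat, 0.0702 for Npc1, 0.122 for Rragd and 0.197 for Ywhab. Over these 4 lists together 74 of 111 genes (66.7%), Ppp3r1 among them, were lower in TAM, while 59.0% of all genes were. With the block 4 (3.6%) passed, near the 3.38% of all genes. Tfe3, a close relative of Tfeb, averaged 7.81 ± 0.14 in TAM and 7.63 ± 0.10 in OIL and differed by 0.17 (adjusted p = 0.418), while the other 2 relatives, Mitf and Tfec, were too dim to be tested.

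Between the labels, 4 of the 111 genes of these lists (3.6%) passed, near the 2.60% of all genes (limma, 5 label means). Ppp3ca, a catalytic subunit of calcineurin, averaged 5.76 in 204 and 206 and 8.11 in the F3 family, a difference of -2.35 (adjusted p = 0.00403). Laptm4b, a lysosome membrane protein, was higher in 204 and 206, at 9.96 against 7.18 (difference 2.78, adjusted p = 0.00468), as was Epg5, a tether for fusion of autophagosomes with lysosomes, at 9.15 against 7.39 (difference 1.76, adjusted p = 0.0202). Ostm1, the partner of the chloride transporter CLCN7, was lower in 204 and 206, at 8.99 against 9.80 (difference -0.81, adjusted p = 0.0379). These 4 differences were each read from 1 probe set, and their dependence on other probe sets or on single labels was not examined.

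The 5 members with the 8-letter CLEAR match, the 4 whose promoters are printed above and Mcoln1, were not alike in their TAM minus OIL difference. Atp6v0d1, Ctsa and Ctsd differed by -0.17, -0.26 and -0.26 and were lower in TAM in 5 of 5 pairs, while Gla (0.06) and Mcoln1 (0.02) were not lower by the mean. Of the 11 members with CACGTG 7 were lower by the mean, and of the 21 members with a window and without it 18 were. The median difference went the other way, at -0.14 with CACGTG and -0.08 without it. Lower in all 5 pairs were 5 of the 11 and 5 of the 21. The member with the lowest blocked p beside Scarb2, Asah1, has no window in the RefSeq table.

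For 23 of the 36 members another probe set was above the limit for dim genes. Of these 40 other probe sets 26 had the same sign of TAM minus OIL as the one used and 14 the opposite sign. Asah1, Ctsd and Hexa were each read by 1 probe set.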

How the data were processed

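RNA of 10 leukemia samples was hybridised to mouse Affymetrix-style arrays of 45101 probe sets. Per the submitters' processing notes, the deposited log2 values came from RMA, which corrects background, normalizes by quantiles and summarises probe sets; its version and the annotation build were not given in the sources used here. Values below the array's reach compress towards its floor, so differences of dim genes are understated, and the number of arrays limits the precision.

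Symbols came from the platform annotation, updated through Entrez identifiers to RefSeq GRCm38.p6; 34945 probe sets carried 1 symbol, and 64 control probe sets were left out. The dimmest 30% of 18193 genes (mean below 4.59) were removed. limma 3.58.1 in R 4.3.3 was fitted to the remaining 12735 genes, without a block as the main fit (8 residual degrees of freedom) and with the label as a block (4). Label means were fitted for 204 and 206 against the F3 family (3). P-values were adjusted by Benjamini-Hochberg and called under 0.05. The fits without a block, with the block and on label means were tested on simulated data, and the other fits were not.

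Same-label TAM and OIL arrays deviated together (correlation of deviations 0.763, 0.745, 0.804, 0.585 and 0.184 for 204, 206, F3, F3.1 and F3.2), each above the limit of 0.1, so the labels were taken as pairs. TAM F3.1, TAM F3.2 and OIL F3.2 nevertheless matched another label best. OIL F3.1 and OIL F3.2 differed with an SD of 0.19 over all probe sets.

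The members, the pathway lists and the tests were chosen with earlier results of these data known. Named with their values were Tfeb, Mcoln1, Sqstm1, Map1lc3b, members called in any fit, and the 10 largest differences in each comparison; other members are given by shorter values. Alternatives were other filters, normalizations, probe set choices, variance models, blocks and arrays left out. The mean of all probe sets of a gene took in its dim ones. Of the lists of cell markers, the B cell list had 3 of 6 measured genes above the limit for dim genes, the erythroid 2 of 3, the megakaryocyte 2 of 3 and the dendritic 1 of 3.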

Additional observations from a re-analysis of the deposited data

Results flagged for a closer look

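In 72 groups of 5 arrays (36 genes in TAM and in OIL), 3 single arrays stood apart from the other 4 by Dixon's test, and chance alone marks about 5% of such groups. Gabarapl1, an autophagosome protein, was highest in TAM F3.1 at 5.53356, with the next TAM array at 5.22022. Ctsz, a cysteine cathepsin, was highest in TAM 204 at 10.3072, with the next TAM array at 10.1168. Mcoln1, the lysosomal calcium channel, was highest in OIL F3 at 6.86054, with the next OIL array at 6.7133. The cause of these values was not tested.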

How the results depend on the processing

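Between TAM and OIL, 60 genes and 0 of the 36 members were called without the block. With the replicate block the counts were 431 and 2, and with the label as a random term 728 and 4 (Asah1, Scarb2, Ctsd and Gabarapl2). The count of genes was 26 with the mean of all probe sets, 8 to 54 with single arrays left out (fewest without OIL F3.1, and 10 without OIL F3.2), 10 with OIL F3.1 and OIL F3.2 averaged and 3 without both, the last 2 settings being chosen after seeing the data. With single arrays left out the members' median ran from -0.151195 (without TAM F3) to -0.0509575 (without OIL F3.2), and it was -0.0335248 without both OIL F3.1 and OIL F3.2. Mcoln1 turned to -0.00815424 after a further quantile normalization and to -0.0176283 with the mean of probe sets, and ran from -0.0126742 to 0.0613517 with single arrays left out. Sqstm1 ran from -0.128932 to 0.0001523 (without TAM 204), and was 0.0178667 without OIL F3.1 and OIL F3.2, where Lamp2 was 0.0996653. Of 280 repeats of the named TAM minus OIL values, 268 kept direction and side of the threshold, 6 reversed and 6 came to pass it. None of these values passed in the main fit, so keeping its side says little, and a change of size was not counted. Over the repeats Tfeb ran from -0.27 to -0.02 and Ppt1 from -0.53 to -0.09.

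Between labels, 331 genes were called, 87 in the TAM arrays alone and 107 (without F3.1) to 535 (without F3) with labels left out. In the main fit 1 member (2.78%) and 2.60% of all genes were called. Members called were 3 after quantile normalization, where 341 of all genes were called, and 2 with the mean of probe sets, where 253 were. The count of members was 2 with trend and robust variance, 0 in TAM arrays alone, 2 in OIL arrays alone, and 0 to 3 with labels left out. With labels left out the members' median ran from -0.1393 (without F3) to -0.104346, and it was -0.0875326 with arrays centred on their medians and -0.0857192 with the mean of probe sets. Of 130 repeats of named values, 119 kept direction and side of the threshold, whatever their size. Another 7 came to pass it and 4, all of Hexa, no longer passed. The causes were not tested. With 5 arrays a group, small differences can be missed, and probe sets near the limit for dim genes carry compressed differences.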
